A study of Homo sapiens with 14 samples.

Results

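The MYC and MAX network was examined in human cells on the path from pluripotent stem cells to pancreatic β-like cells. Its 10 genes (MYC, MYCN, MYCL, MAX, MXD1, MXD3, MXD4, MXI1, MNT and MGA) were found by gene symbol among the 60624 Ensembl gene identifiers listed for each library, and all 10 were found once. Bulk RNA sequencing of 14 libraries in 9 groups gave the level of each gene as TPM, a proportion of the library's transcripts in which long and short genes are put on 1 scale. All libraries came from 1 human embryonic stem cell line, MEL1 INS GFP/W, in which GFP stands in 1 of the INS alleles, so the results describe 1 genetic background and every group carries the reporter.

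Batch 1 held 1 library for each of 4 stages of direct differentiation, which were undifferentiated pluripotent cells (hPSC), definitive endoderm (DE), the later pancreatic progenitor stage (PP2) and β-like cells obtained with no expansion step (SC-β). Batch 2 held 2 libraries for each of 3 groups, which were expandable pancreatic progenitors (ePPs) after 9 passages (ePP-P9) and after 21 (ePP-P21), and the β-like cells into which ePPs were differentiated (ePP-β). The ePPs were grown on feeder cells in a medium with EGF, bFGF, an inhibitor of TGFβ signalling and 1 μM I-BET151, so they carried the BET inhibitor throughout. I-BET151 blocks the bromodomains of the BET proteins, which bind acetylated histones and help RNA polymerase II to elongate. The study's methods do not name I-BET151, EGF or bFGF among the additives of the β-cell stages. They name others that the ePP medium lacked, such as T3, LDN-193189, compound E and forskolin. So the step from ePP to ePP-β changed the stage, the inhibitor and other parts of the medium. It may also have changed the feeder cells and the form of culture, since the study's methods describe differentiation of hPSCs as shaken aggregates. These changes cannot be told apart. Batch 3 held 2 libraries of pancreatic progenitors that received the solvent for 7 days (DMSO). It also held 2 of progenitors that received 1 μM of the inhibitor over the same time (I-BET151). In its screen and chromatin assays the study kept progenitors in the ePP base medium of EGF, bFGF and the TGFβ inhibitor, with or without I-BET151. DMSO and PP2 may therefore differ in culture as well as in batch. Whether the 2 libraries of a group came from separate cultures is not given in the sources used here, so p-values measure only the spread between these libraries, which may be technical.

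MYC, MYCN and MYCL are helix-loop-helix leucine zipper proteins that bind DNA only as dimers with MAX. The dimers bind the E-box CACGTG and raise transcription of genes for ribosome assembly, nucleotide synthesis and the cell cycle. The MXD proteins, MNT and MGA compete for the same partner, and their dimers with MAX recruit co-repressors to the same sites. In many cancer lines BET inhibitors lower MYC transcription, and in the pancreas MYC is known for its part in progenitor growth and β-cell proliferation.

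Between 14982 and 17578 genes per library reached 1 TPM. Read depth is unknown, since TPM does not keep it. All 37 mitochondrial genes were listed at 0 in every library, so a listed 0 need not be a measured one. None of the 10 network genes was listed at 0, and the lowest value was 1.16 TPM. The stage markers were checked against the labels. The summed level of 8 pancreatic progenitor markers was 875 TPM in PP2, 816 to 994 TPM in the 4 ePP libraries and 2.63 TPM in hPSC. The same sum was 535 TPM in DE, 731 TPM in SC-β and 523 and 541 TPM in ePP-β. These values lay above DMSO (403 and 507 TPM), so the sum set hPSC apart but did not separate progenitors from these stages. Of its 8 genes, NKX6-1 stood at 23.5 TPM in PP2, whereas no ePP library held less than 176 TPM. The summed level of 8 endocrine markers was 42520 and 47088 TPM in the ePP-β libraries and at most 7.18 TPM in the ePP libraries. GCG, the glucagon gene of α-cells, was above INS in SC-β (74281 against 20657 TPM) and in ePP-β replicate 1 (14107 against 10916 TPM). It was below INS in ePP-β replicate 2 (13360 against 17374 TPM). So both groups called β-like held glucagon transcripts at listed levels like those of insulin or higher. With GFP in 1 INS allele, the INS values may miss transcripts of that allele, so the order of the 2 genes is uncertain. By staining, the study found that C-peptide-positive ePP-β cells rarely held glucagon, which bulk levels cannot address. CXCR4, used as a definitive endoderm marker, was at 105 TPM in DE but at 147 and 226 TPM in ePP-β. Mesenchyme markers were highest in PP2 (1527 TPM over 8 genes) and SC-β (2770 TPM). In bulk libraries, fewer cells of a type and less RNA per cell cannot be told apart.

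The genes lie on 9 chromosomes of GRCh38. MYC carries the identifier ENSG00000136997. MYCN (ENSG00000134323) is on chromosome 2 from 15940550 to 15947007 and MYCL (ENSG00000116990) on chromosome 1 from 39895428 to 39902256. MAX (ENSG00000125952) is on chromosome 14 from 65006174 to 65102695. Every one is protein-coding. Whether the counting used strand is not given in the sources used here, so reads of overlapping genes cannot be told apart. The antisense neighbours of MYC, MYCN and MYCL (CASC11, MYCNOS and MYCL-AS1) reached at most 0.606, 2.79 and 0.411 TPM. MXD3 overlaps PRELID1, which reached 669 TPM, and RAB24, which reached 67.5 TPM. MXD1 overlaps SNRNP27 on the same strand (up to 70.6 TPM), MXD4 overlaps the miRNA gene MIR4800 on the same strand (up to 64.7 TPM), and MAX overlaps FNTB (up to 28.7 TPM) and CHURC1-FNTB (up to 47.4 TPM).

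The promoters of MXD4 and MNT are shown because they alone among the members' windows hold the E-box that the network's own dimers bind. RefSeq promoter windows (GRCh38.p14) were found for 9 of the 10 genes, 14 windows in all, and not for MYC. The letters CACGTG, which read the same on both strands, were searched in the 250 bases before each start and were found in 2 of the 14 windows, against 6.34% of the 35116 windows of all genes. The match lies 238 bases before the start of MXD4 and 193 bases before that of MNT. A match is a description of the sequence, and binding was not measured here. The bases before the first exon are printed 5′ to 3′ on the minus strand, with the E-box in capitals, for MXD4 (chr4:2262110-2262359) and MNT (chr17:2401105-2401310).
MXD4: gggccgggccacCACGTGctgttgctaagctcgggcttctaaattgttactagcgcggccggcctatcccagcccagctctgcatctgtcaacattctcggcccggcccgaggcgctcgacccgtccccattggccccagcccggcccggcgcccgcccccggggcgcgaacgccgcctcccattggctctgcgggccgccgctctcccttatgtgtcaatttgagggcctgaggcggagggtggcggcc
MNT: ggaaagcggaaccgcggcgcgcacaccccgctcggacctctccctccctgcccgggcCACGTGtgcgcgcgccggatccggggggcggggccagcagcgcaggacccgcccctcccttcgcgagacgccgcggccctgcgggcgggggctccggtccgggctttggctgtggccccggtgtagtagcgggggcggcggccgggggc

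MYC was high in the ePP, DMSO and I-BET151 libraries and low in PP2 and in both kinds of β-like cell. It was at 39.5 TPM in hPSC, 11.3 TPM in DE, 14.6 TPM in PP2 and 14.9 TPM in SC-β. The ePP-P9 libraries were at 140 and 151 TPM, those of ePP-P21 at 102 and 152 TPM, and those of ePP-β at 17.6 and 18 TPM. In the third batch DMSO was at 105 and 82.1 TPM and I-BET151 at 175 and 108 TPM. The highest group mean was 12.8-fold above the lowest. The ePP-P9, I-BET151 and ePP-P21 groups overlapped their neighbours in the order of means, as did ePP-P21 and DMSO, whereas every DMSO library was above the hPSC library.

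MYCN, the paralogue known for its part in embryonic and neural progenitors, had another order. Its highest levels were in hPSC (43.4 TPM) and PP2 (37.7 TPM), and its lowest was in DE (4.45 TPM). The ePP-P9 libraries were at 11.2 and 13 TPM, those of ePP-P21 at 11.9 and 16.8 TPM, and those of ePP-β at 32.4 and 32.7 TPM. SC-β was at 26 TPM. DMSO was at 19.5 and 17 TPM and I-BET151 at 22.4 and 15.8 TPM, and these overlapped. So the ePP libraries, which were among the highest for MYC, were below every group but DE for MYCN, although ePP-P21 replicate 2 (16.8 TPM) came within the range of I-BET151.

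MYCL, the family member with the weakest transforming activity, varied least of the family, with 4.67-fold between the highest and lowest group means. PP2 was highest at 21.4 TPM, followed by hPSC at 16.2 TPM and DE at 14.3 TPM. ePP-P9 was at 12.1 and 10.8 TPM, ePP-P21 at 11 and 14.6 TPM and SC-β at 10.5 TPM. The lowest values were 6.06 and 4.77 TPM in ePP-β and 3.62 and 5.53 TPM in DMSO, which overlapped. I-BET151 was at 16 and 10.1 TPM, above both DMSO libraries.

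**Figure D1:**
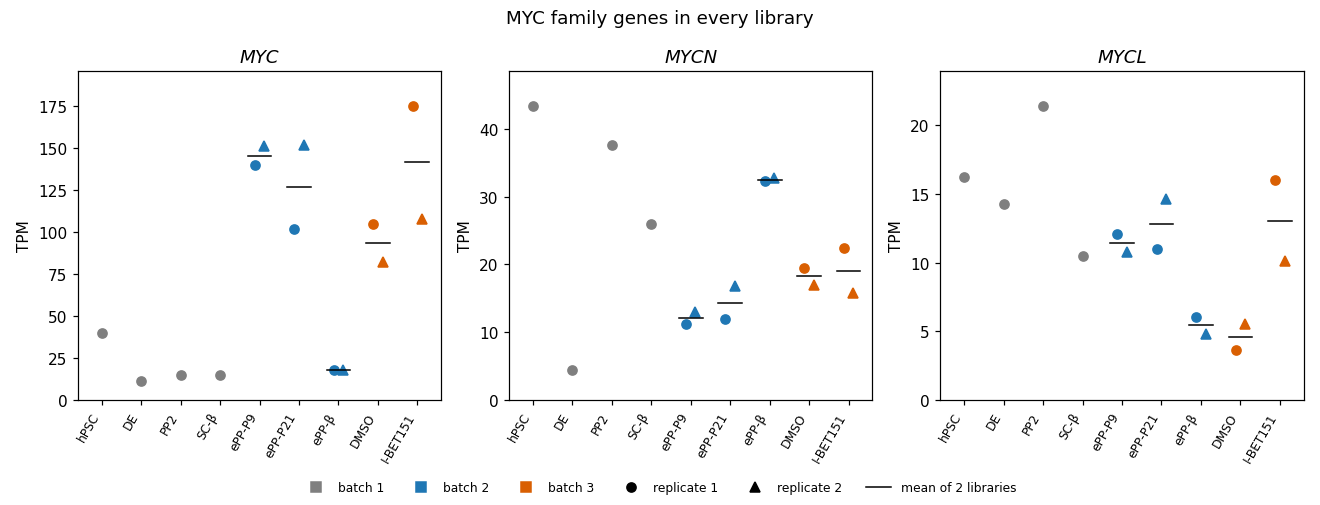
Level of MYC, MYCN and MYCL (TPM, linear axes from 0) in each of the 14 libraries, by group. Colours mark the batch, symbols the replicate number and lines the mean of 2 libraries. MYC is at 82.1 to 175 TPM in the ePP, DMSO and I-BET151 libraries and at most 39.5 TPM elsewhere, whereas MYCN is highest in hPSC and PP2.

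MAX, the shared partner, was the steadiest member. Its levels ran from 25.1 TPM (DMSO replicate 1) to 46.1 TPM (ePP-β replicate 1), with 1.44-fold between the highest and lowest group means, and most neighbours in that order overlapped.

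MXD4, a repressor partner of MAX often described in differentiating cells, had the highest level of the 6 MAX partners outside the MYC family in all 14 libraries. It was at 35.9 TPM in hPSC, 128 TPM in DE, 236 TPM in PP2 and 196 TPM in SC-β. The 4 ePP libraries lay between 82.3 and 93.8 TPM and the ePP-β libraries were at 54.9 and 59.1 TPM. Replicates of the third batch were far apart. DMSO was at 69.7 and 33.2 TPM and I-BET151 at 157 and 51.4 TPM, with the replicate 1 library higher in each.

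MXD3, known for its expression in cycling cells, was highest in PP2 at 75.8 TPM. It was at 13.3 and 15.7 TPM in ePP-P9, 23.2 TPM in both ePP-P21 libraries, and 10.9 and 18.3 TPM in ePP-β. MXD1, which is widely described as induced during terminal differentiation, was at 2.05 to 4.61 TPM in the 4 libraries of batch 1. It was at 6.44 to 16.4 TPM in the 10 libraries of the other batches. No group stands in more than 1 batch, so batch, stage and culture cannot be told apart here. DMSO was highest at 16.4 and 13.8 TPM. MXI1, the MXD2 protein, ran from 9.34 TPM (SC-β) to 24.4 TPM (ePP-β replicate 2). MNT, the most widely expressed antagonist, was highest in PP2 (21 TPM) and lowest in ePP-β (6.16 and 5.66 TPM). MGA, a large scaffold of a Polycomb-related complex, was at 1.16 to 6.67 TPM.

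**Figure D2:**
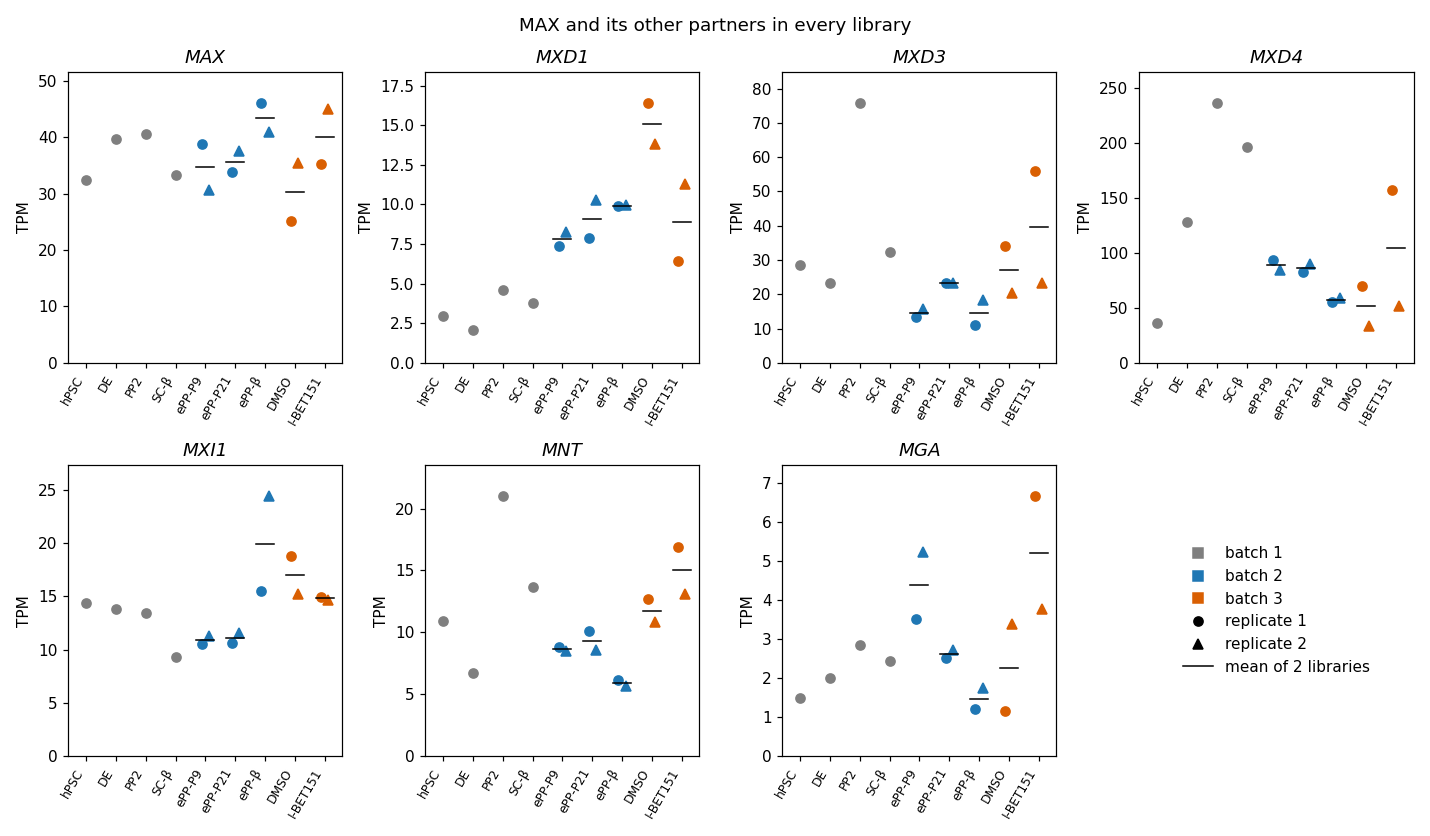
Level of MAX, MXD1, MXD3, MXD4, MXI1, MNT and MGA (TPM, linear axes from 0, each panel with its own scale) in each library, with colours for the batch, symbols for the replicate number and lines for the mean of 2 libraries. MAX stays between 25.1 and 46.1 TPM, and MXD4 peaks in PP2 at 236 TPM.

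TPM is corrected for length, so levels of different genes were also added. The summed MYC family was 125 to 183 TPM in the 4 ePP libraries and 56 and 55.5 TPM in ePP-β, and MYC made up 81.6% to 86.4% of it in the former and 31.3% and 32.5% in the latter. MYCN was the larger part in ePP-β, at 57.9% and 58.9%, and in SC-β and PP2, at 50.6% and 51.2%. In DE the larger part was MYCL, at 47.5%. The sum of the 6 MXD, MNT and MGA genes was 133 to 146 TPM in ePP, 98.5 and 119 TPM in ePP-β, 258 TPM in SC-β and 354 TPM in PP2. The ratio of the MYC family to this sum was 0.914 to 1.31 in ePP, 0.569 and 0.466 in ePP-β, 0.199 in SC-β and 0.208 in PP2. It was 1.05 in hPSC, 0.171 in DE, 0.84 and 1.08 in DMSO and 0.829 and 1.14 in I-BET151. So a ratio in the range of ePP was also found in hPSC, DMSO and I-BET151 libraries. MXD4 alone set much of the sum of the MXD, MNT and MGA genes. Without it, a setting chosen after seeing the data, the ratio was 2.3 to 3.74 in ePP, 1.29 and 0.924 in ePP-β, 0.834 in SC-β and 0.626 in PP2, and the order of ePP, ePP-β, SC-β and PP2 was kept save that SC-β and PP2 changed places. Without MXD4 the ratio was 1.7 in hPSC, 0.628 in DE, 1.54 and 1.65 in DMSO and 2.12 and 2.03 in I-BET151. The single hPSC, DE, PP2 and SC-β libraries came from batch 1, and DMSO and I-BET151 from batch 3. So set against ePP and ePP-β, their group and batch cannot be told apart. Transcript levels do not give protein levels or the dimers formed.

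**Figure D3:**
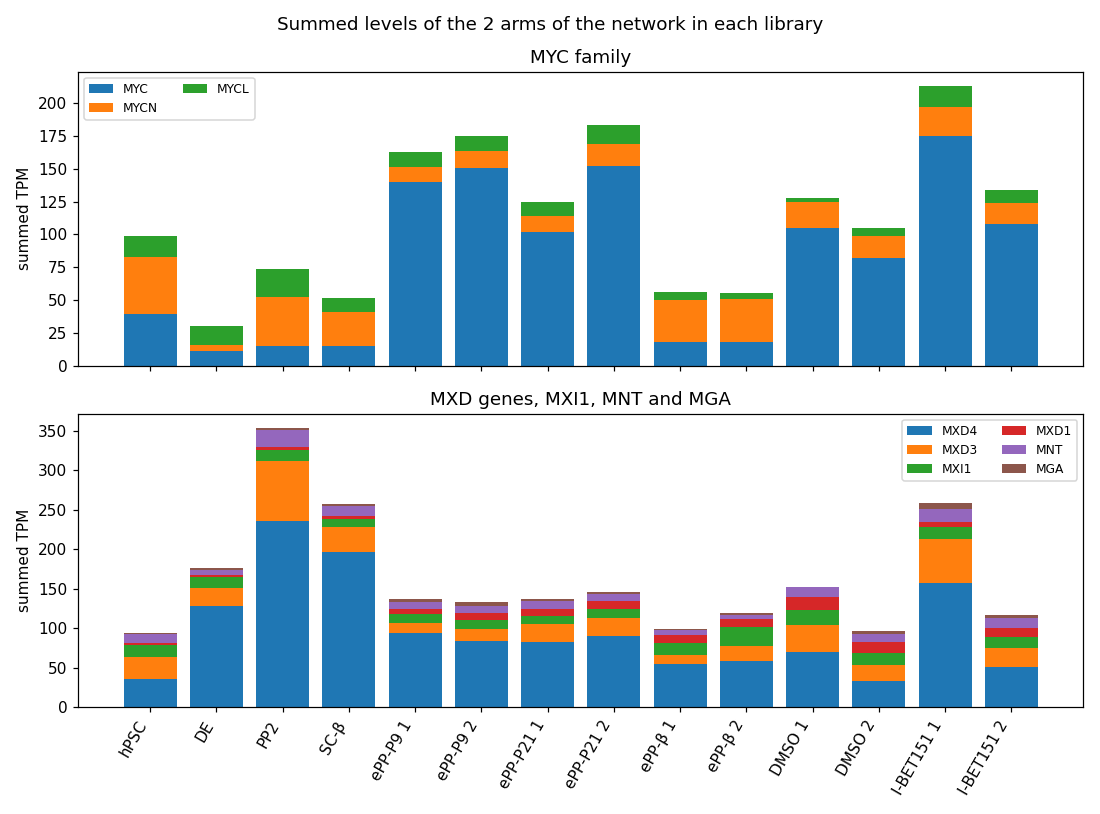
Summed TPM of the MYC family (top) and of MXD4, MXD3, MXI1, MXD1, MNT and MGA (bottom) in each of the 14 libraries, stacked by gene from 0. MYC fills most of the upper bars in the ePP, DMSO and I-BET151 libraries, MYCN is the larger part in ePP-β (57.9% and 58.9%), and the lower bars are tallest in PP2 (354 TPM).

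The comparison of ePP-β with ePP addressed how the network differed once the progenitors had been taken to β-like cells. MYC, MYCN, MXI1 and MNT differed more here than in the other replicated comparisons. For MYCL, MAX, MXD1, MXD3, MXD4 and MGA the log2 fold change was larger in size in I-BET151 against DMSO, with a larger SE. A gene was called at an adjusted p under 0.05 (limma, Benjamini-Hochberg over all 18076 tested genes) and a difference of more than 1 in either direction on log2(TPM + 1). MYCN was called higher, against 17.9% of all tested genes, and MYC and MYCL were called lower, against 9.86%. At the adjusted p alone, 2 members were higher (background 29.2%) and 5 were lower (background 28.2%). Both ePP-β libraries lay above all 4 ePP libraries for 3 members (background 32.2%) and below them for 5 (background 31.6%). With 10 members, each count differs from the one the background share would give by no more than a few genes, and nothing particular to the members is read from it. The median log2 fold change was -0.44 over the members and -0.03 over all tested genes.

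MYC fell from 136 ± 23.4 TPM (SD, n = 4) in ePP to 17.8 ± 0.345 TPM (SD, n = 2) in ePP-β, which is -2.85 ± 0.16 (SE) on the log2 scale (limma adjusted p = 4.73e-05). MYCN rose from 13.2 ± 2.46 TPM to 32.6 ± 0.204 TPM, which is 1.25 ± 0.16 (SE) on the log2 scale (adjusted p = 0.000939). MYCL fell from 12.1 ± 1.72 TPM to 5.41 ± 0.907 TPM, which is -1.03 ± 0.17 (SE) on the log2 scale (adjusted p = 0.00314). The last value sits at the threshold of 1. It came to -0.99 without ePP-P9 replicate 1, -0.94 without ePP-P21 replicate 2 and -0.89 without ePP-β replicate 2, with an adjusted p of at most 0.0177 in every setting run. The family therefore moved in both directions, with MYC at the higher level in ePP and MYCN at the higher level in ePP-β.

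The other members differed by less than 1 log2 unit. MXD4 fell from 87.5 ± 5.39 TPM to 57 ± 3.01 TPM (log2 fold change -0.61, adjusted p = 0.00151 by limma). MNT, MGA and MXI1 passed the adjusted p with log2 fold changes of -0.53, -0.83 and 0.77. These 4 results changed with the fit. In 1 fit over all 10 replicated libraries, which joined batches 2 and 3, the adjusted p of MXD4 was 0.313, that of MNT 0.0558 and that of MGA 0.0914. Leaving out ePP-β replicate 2 gave an adjusted p of 0.0627 for MXI1 and 0.0852 for MNT, and leaving out ePP-β replicate 1 gave 0.105 for MGA. MAX (0.30, 95% interval -0.00 to 0.61), MXD1 (0.22, -0.16 to 0.59) and MXD3 (-0.35, -0.87 to 0.16) had adjusted p of 0.0827, 0.265 and 0.195, which does not show that they stayed equal. The value of MXD3 rested on single libraries, since it was -0.71 without ePP-β replicate 2 (adjusted p = 0.0139) and -0.00 without ePP-β replicate 1 (adjusted p = 0.996).

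**Figure D4:**
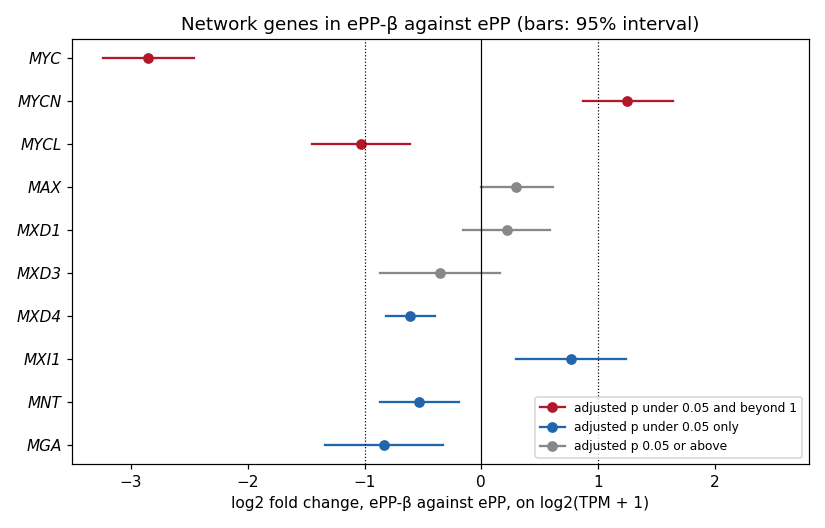
Log2 fold change of each network gene in ePP-β (2 libraries) against ePP (4 libraries), on log2(TPM + 1), with 95% intervals from the linear model. Dotted lines mark a change of 1 in either direction. MYC lies at -2.85, MYCN at 1.25 and MYCL at -1.03, and the other 7 genes lie within the dotted lines.

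Genes widely described as raised by MYC were lower in ePP-β in most cases. These lists were put together by hand from general knowledge and are not a published set. Over all tested genes, 28.2% fell and 29.2% rose at the adjusted p, with a median of -0.03, and the count of each list is set against those shares. For ribosome assembly, 25 of 30 genes fell at the adjusted p and 0 rose, with a median log2 fold change of -0.78. TCOF1, a factor for ribosomal RNA transcription, fell from 50.7 ± 3.5 TPM to 12.9 ± 1.72 TPM, and MYBBP1A, RRP12 and RRP9 had log2 fold changes of -1.78, -1.47 and -1.40. For nucleotide, polyamine and sugar metabolism, 16 of 21 fell and 4 rose, with a median of -0.83. ODC1, the first enzyme of polyamine synthesis, fell from 631 ± 32.9 TPM to 162 ± 5.42 TPM, whereas PRPS2, which makes the ribose phosphate for nucleotides, rose from 18 ± 3 TPM to 99.7 ± 14.1 TPM. For the cell cycle, 9 of 11 fell and 1 rose, with a median of -1.31, and CDC25A (-1.74) and E2F1 (-1.69) were among them. TERT was under 1 TPM in every library of 1 side of this comparison, and without it 8 of 10 fell. The fit over all 10 replicated libraries gave 17, 13 and 8 lower in the 3 lists. General proliferation markers moved with these lists, although they are not separate from them. CCNB1 (-1.53), at least, stands both among these markers and in the cell cycle list. All 8 markers fell, with a median of -1.49. Their summed level was 742 to 852 TPM in ePP and 271 and 281 TPM in ePP-β. Their part in the result was not tested. Of 6 genes described as repressed by MYC, 2 rose and 2 fell. NDRG1 rose from 65.1 ± 11.9 TPM to 271 ± 110 TPM, and CDKN1A, a cell cycle inhibitor, fell from 164 ± 23.5 TPM to 54.5 ± 6.42 TPM.

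Transcripts for proteins that act with the network were counted against the same shares of all tested genes. Of 12 cofactors of MYC, 9 fell and 1 rose. AURKA, a kinase that stabilises MYCN, fell from 42.5 ± 6.44 TPM to 12.1 ± 1.22 TPM, and WDR5, a chromatin docking partner of MYC, fell from 49.9 ± 2.5 TPM to 22 ± 4.77 TPM. Of 10 genes for MYC turnover, 4 fell and 2 rose, which is near those shares. FBXW7, the ubiquitin ligase subunit that marks MYC for degradation, was at 7.75, 11.4, 12.6 and 12.8 TPM in ePP and at 39.6 and 60.7 TPM in ePP-β, which is 2.07 on the log2 scale (limma adjusted p = 0.000492). SKP2, another such subunit, was at 78.8 to 103 TPM in ePP and at 20.8 and 20.1 TPM in ePP-β, which is -2.08 on the log2 scale (adjusted p = 1.92e-05). Of 12 co-repressors and partners of the MXD, MNT and MGA proteins, 5 fell and 0 rose, and CBX3 had the largest difference (-1.02). In the sister branch of the network, built on MLX, MLXIPL, the glucose-sensing factor ChREBP, was at 0.286 to 0.783 TPM in ePP and at 19.1 and 36.6 TPM in ePP-β. It passed the filter of 1 TPM only through ePP-β, so its direction was fixed by the filter. Of the other 4 genes of the branch, 2 rose and 1 fell, and the ChREBP target ARRDC4 rose from 49 ± 9.56 TPM to 98.3 ± 3.32 TPM.

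Of the 8 endocrine markers, 6 (INS, GCG, SST, NEUROD1, ISL1 and ABCC8) were under 1 TPM in every ePP library and entered the test only through ePP-β, and the other 2 rose. Of the 6 liver markers, this held for ALB, and the other 5 rose, and the list summed to 192 to 220 TPM in ePP and 16515 and 19144 TPM in ePP-β. TTR, 1 of these, is also made by islet cells, and at 13015 and 15556 TPM it held most of the ePP-β sums. Pancreatic progenitor markers gave 6 of 8 lower and 1 higher at the adjusted p, mesenchyme markers 2 of 6 tested lower, pluripotency markers 2 of 3 tested lower (DPPA4 was under 1 TPM on 1 side) and 1 higher, and of the definitive endoderm markers only CXCR4 was tested and it was higher. Whether these differences in cell state bear on the network genes was not tested.

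The 2 passages addressed whether the network held its levels during expansion. ePP-P21 against ePP-P9 gave 0 members called higher (background 1.07%) and 0 called lower (background 0.0569%) by limma over 15822 genes, and 1 member had an unadjusted p under 0.05 (background 23.0%). That member was MXD3, at 13.3 and 15.7 TPM in ePP-P9 and 23.2 TPM in both ePP-P21 libraries, which is 0.65 ± 0.13 (SE) on the log2 scale (adjusted p = 0.0784). MXD3 was also the 1 member whose ePP-P21 libraries both lay above those of ePP-P9 (background 41.3%), and MGA the 1 member for which they lay below (background 13.1%), with a log2 fold change of -0.55. MYC had a log2 fold change of -0.22, with a 95% interval of -0.69 to 0.25. The 95% intervals of MXD4 (-0.29 to 0.20) and MAX (-0.32 to 0.40) were also within 1 log2 unit of 0, as were those of all members but MGA (-1.15 to 0.05). The median over the members was 0.07, against 0.13 over all genes. With each library centred on its median, the differences of MYCL, MAX, MXD1, MXI1 and MNT turned from above to below 0.

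Of the target lists, NME1, a nucleoside diphosphate kinase, was the only gene past the adjusted p between the passages, at 291 and 270 TPM in ePP-P9 and 189 and 197 TPM in ePP-P21 (-0.54 on the log2 scale, limma adjusted p = 0.0439, background 1.95%). No metabolism gene was past it with no filter, median centring, quantile normalization, the replicate number as a block or all 10 replicated libraries, nor without ePP-P9 replicate 1 or either ePP-P21 library. The median was 0.06 over ribosome assembly, -0.05 over metabolism, -0.09 over cell cycle targets and 0.38 over the genes described as repressed by MYC. The cofactor, turnover, co-repressor and MLX lists had 0 genes past the adjusted p. At an unadjusted p under 0.05 (background 23.0%) they had 4 of 12, 1 of 10, 1 of 12 and 2 of 4. The proliferation list had 0 past the adjusted p and 1 at the unadjusted p.

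The DMSO and I-BET151 libraries addressed what 7 days of BET inhibition did to the network in pancreatic progenitors. MYC was not lower in the libraries that received the inhibitor. It was at 105 and 82.1 TPM in DMSO (93.7 ± 16.4, SD, n = 2) and at 175 and 108 TPM in I-BET151 (142 ± 47.5), so both treated libraries lay above both controls. Its log2 fold change was 0.56, with SE 0.38, a 95% interval of -0.40 to 1.53 and limma adjusted p = 0.544. The difference was 0.73 in the replicate 1 libraries and 0.40 in the replicate 2 libraries on log2(TPM + 1). Leaving out I-BET151 replicate 1 brought the fold change to 0.22.

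By limma over 16687 genes, 0 members were called higher (background 0.00599%) and 0 lower (background 0.204%), and 1 member, MYCL, had an unadjusted p under 0.05 (background 15.2%). The 95% intervals of the members ran up to 2.59 and down to -1.72, so these zeros do not show that levels stayed equal. MYCL had the largest log2 fold change of the members over all 4 libraries, although MXD4 was above it without DMSO replicate 1 (1.41 against 1.08) and without I-BET151 replicate 2 (1.69 against 1.63). MYCL was at 3.62 and 5.53 TPM under DMSO against 16 and 10.1 TPM under I-BET151, which is 4.42-fold and 1.83-fold in the same-numbered libraries. Its log2 fold change was 1.33, with SE 0.39, a 95% interval of 0.34 to 2.31 and adjusted p = 0.213. In the fit over all 10 replicated libraries its adjusted p was 0.0273. MYCN had a log2 fold change of 0.04 (95% interval -0.81 to 0.90), and its differences within the pairs were 0.19 and -0.10.

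In the same-numbered libraries, 7 of the 10 members were higher in both pairs with I-BET151 and 2 were lower in both, where 48.6% and 29.3% of all tested genes were. Both I-BET151 libraries lay above both DMSO libraries for 4 members (MYC, MYCL, MNT and MGA, background 28.7%) and below them for 2 (MXD1 and MXI1, background 18.0%). The median log2 fold change was 0.43 over the members and 0.16 over all tested genes.

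MAX was at 25.1 and 35.4 TPM under DMSO against 35.3 and 45 TPM under I-BET151, with differences of 0.48 and 0.34 in the pairs. Among the antagonists, MXD1 was at 16.4 and 13.8 TPM under DMSO against 6.44 and 11.3 TPM under I-BET151. Its differences were -1.23 and -0.26, and its log2 fold change of -0.75 had an adjusted p of 0.43 by limma. It was -0.38 without I-BET151 replicate 1 and -1.11 without I-BET151 replicate 2. MXD4 differed by 1.16 and 0.62 in the pairs, but by -1.05 and -1.59 between the replicates of 1 treatment. Its adjusted p was 0.585, and leaving out 1 library gave fold changes from 0.09 to 1.69. MGA was at 1.16 and 3.38 TPM under DMSO against 6.67 and 3.77 TPM under I-BET151, so its differences of 1.83 and 0.12 rested on the replicate 1 libraries. MNT differed by 0.38 and 0.25, MXD3 by 0.70 and 0.18 and MXI1 by -0.32 and -0.04. Without I-BET151 replicate 1 the log2 fold change of MXD3 was -0.17 and that of MYCN -0.20. In all 10 genes the pair of replicate 1 libraries differed more than the pair of replicate 2 libraries, as did 60.6% of all tested genes.

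**Figure D5:**
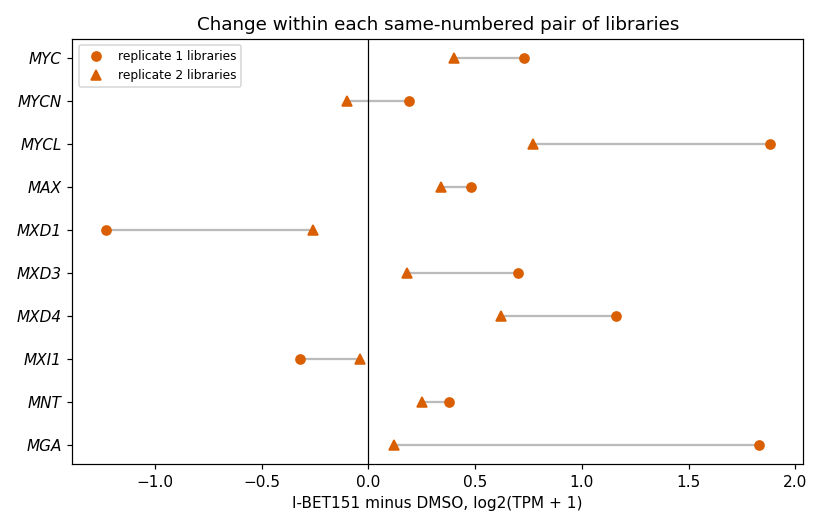
Difference in log2(TPM + 1) between I-BET151 and DMSO for each network gene, in the replicate 1 libraries (circles) and the replicate 2 libraries (triangles). MYC, MYCL, MAX, MXD3, MXD4, MNT and MGA lie above 0 in both pairs, MXD1 and MXI1 lie below 0 in both, and MYCN lies at 0.19 and -0.10.

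The target lists had 0 genes past the adjusted p with I-BET151 by limma (background 0.210%). On simulated data with noise of the libraries' full spread, this fit did not recover the changed genes. The zeros given here and for the markers below therefore do not show that levels stayed equal. With the replicate number as a block, 3 ribosome assembly, 4 metabolism and 2 cell cycle genes were higher and 2 genes described as repressed by MYC were lower, and the fit over all 10 replicated libraries gave 0, 2, 1 and 1. At an unadjusted p under 0.05 (background 15.2%) there were 0 of 29 tested ribosome assembly genes and 1 of 21 metabolism genes. The same held for 1 of 11 cell cycle genes and 1 of 6 genes described as repressed by MYC. The medians of these lists were 0.33, 0.22, 0.40 and -0.51. RRP12 was under the filter on low values, at 0.222 to 1.8 TPM in batch 3. In the other libraries it was at 10.2 to 40.1 TPM, and the cause of this difference was not tested. ODC1 was at 135 and 179 TPM under DMSO against 445 and 436 TPM under I-BET151 (adjusted p = 0.131 by limma). E2F1 was at 14.9 and 15.2 TPM and at 50.8 and 34.8 TPM (1.43, adjusted p = 0.154), and CDKN1A at 247 and 181 TPM and at 105 and 68.7 TPM (-1.30, adjusted p = 0.211). These groups did not overlap, yet none passed the test. With a test on counts (DESeq2) at the same thresholds, the study called far more genes, with CDKN1A reported as significantly lower. The cofactor, turnover, co-repressor and MLX lists also had 0 genes past the adjusted p, with 2, 1, 0 and 0 at the unadjusted p. RUVBL1, an ATPase that binds MYC, was at 56.1 and 46.9 TPM and at 128 and 87.5 TPM (1.03, adjusted p = 0.265).

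Other markers moved beside these values. Liver markers summed to 5146 and 6263 TPM under DMSO against 903 and 1574 TPM under I-BET151, with TTR called lower, 1 of 6. Mesenchyme markers summed to 125 and 247 TPM and to 53.3 and 89.1 TPM, and LUM, the 1 gene of 6 tested that was called, was under 1 TPM in both I-BET151 libraries, so its direction was fixed by the filter. Pancreatic progenitor markers had 0 of 8 past the adjusted p and 5 at the unadjusted p, with a median of 1.10, and summed to 403 and 507 TPM and to 798 and 1471 TPM. Proliferation markers summed to 381 and 471 TPM and to 555 and 719 TPM, with 0 of 8 past the adjusted p. Endocrine markers had 0 of 3 tested past the adjusted p, definitive endoderm markers 0 of 2 and pluripotency markers 0 of 1. Ribosomal protein genes held 19.1% and 26.4% of the listed TPM in the replicate 1 and replicate 2 libraries of DMSO, and 15.6% and 26.3% in those of I-BET151. The part of these in the network's levels was not tested.

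The genes whose levels were most like those of each family member were taken as the 5 protein-coding genes with the highest Pearson r of log2(TPM + 1) over the 14 libraries, out of 12774 compared. The libraries share groups and batches, so these are descriptions. For MYC they included SEL1L3 (r = 0.94), SPRY1 (0.933), PRKCA (0.928) and ASRGL1 (0.921). SPRY1 is a feedback inhibitor of growth factor signalling and PRKCA is a protein kinase C. For MYCN they were TLCD3A (0.923), ENSG00000271949 (0.915), CYB5A (0.886), APOL2 (0.872) and NEURL1 (0.87). For MYCL they were NPLOC4 (0.952), RAB35 (0.948), STIMATE-MUSTN1 (0.945), MAP3K3 (0.933) and DNAJB1 (0.929). No gene stood in more than 1 of these lists. Within the family r was -0.244 for MYC with MYCN, -0.00576 for MYC with MYCL and -0.0745 for MYCN with MYCL. The most alike pair of members was MXD3 and MNT, with r = 0.852.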

How the data were processed

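Per the labels and the study's methods, the authors extracted total RNA, made paired-end NEBNext libraries, aligned reads to GRCh38 with HISAT2 2.1.0 and estimated transcript levels with StringTie. The deposited TPM values were used as given. The annotation release is not given in the sources used here. For their own tests the authors used DESeq2, which needs counts.

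Identifiers were matched to GENCODE release 44 (GRCh38), and 60370 of 60624 matched. Groups came from the sample titles. A gene entered a fit if 2 or more of its libraries reached 1 TPM, and the fits used log2(TPM + 1), a scale that understates changes of low genes. limma 3.58.1 (R 4.3.3, eBayes with trend) fitted all kept genes in the groups compared, without a replicate block, and ePP stood for the average of both passages' group means. Tests were two-sided. No test was made for groups with 1 library. ± is the SD over libraries unless SE is stated.

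All members are named. Of the genes most like MYC in level, 1 is not reported here. From other lists, examples came from up to 4 genes with the largest change and a mean of at least 5 TPM. The members and lists were chosen with earlier results of these data known, so no list is independent evidence. The code was tested on simulated data. With noise of the libraries' full spread, the fit of I-BET151 against DMSO did not recover the changed genes, although the fits of the other comparisons recovered most. A second noise setting, with the replicate number taken out, was added after that outcome was seen, and most changed genes were then recovered in each comparison. The alternatives were another pseudocount, other filters, median centring, quantile normalization, the replicate number as a block, 1 fit over all 10 replicated libraries, and leaving out each library.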

Additional observations from a re-analysis of the deposited data

How the results depend on the processing

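In I-BET151 against DMSO, 35 genes were called. The count was 0 with a pseudocount of 0.1, 0 with no filter, 120 with median centring, 138 with quantile normalization, 1673 with all 10 replicated libraries and 107 to 1034 when 1 library was left out. The members called were 0 in each of these but the fit over all 10 libraries, which called 1, MYCL (log2 fold change 1.33). Below 0 were the values of MYCN with median centring (-0.04) and quantile normalization (-0.06), and, among fits that left out 1 library, some of MYCN (-0.20 to 0.28) and MXD3 (-0.17 to 1.06).

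Titles share replicate numbers, but nothing in them says that a number marks a shared culture. With the replicate block, 2294 genes and 1 member were called in I-BET151 against DMSO (MYCL, adjusted p = 0.0457 by limma), 66 genes and 0 members in ePP-P21 against ePP-P9, and 5032 genes and 3 members in ePP-β against ePP. MXD4 had an adjusted p of 0.0363 and a log2 fold change under 1 with I-BET151 under the block, and MYC an adjusted p of 0.0686. Differences between replicates correlated across genes at r = 0.675 in DMSO and I-BET151, and at -0.00933, 0.0323 and 0.0424 among the ePP-P9, ePP-P21 and ePP-β groups. With 2 pairs this is a hint from the data and not the design.

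In ePP-P21 against ePP-P9, 178 genes were called. The count was 0 with no filter, 0 with median centring, 13 with quantile normalization, 1 with all 10 replicated libraries, and 0 to 478 when 1 library was left out, and 0 members were called in each. Below 0 were MYCL (-0.06), MAX (-0.16), MXD1 (-0.01), MXI1 (-0.18) and MNT (-0.12) with median centring, and MYCL (-0.07), MAX (-0.11), MXD1 (-0.02), MXI1 (-0.19) and MNT (-0.12) with quantile normalization. Leaving out 1 library gave a range across 0 for MYC (-0.51 to 0.07), MYCN (-0.01 to 0.44), MYCL (-0.04 to 0.32), MAX (-0.12 to 0.21), MXD4 (-0.12 to 0.04), MXI1 (-0.04 to 0.08) and MNT (-0.02 to 0.19).

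In ePP-β against ePP, 5020 genes were called, and 3466 to 5820 under the alternatives, with 2 to 4 members. No member changed sign in the alternatives run, but MXD3 came to -0.00 without ePP-β replicate 1, which has no direction. MGA passed both thresholds with a pseudocount of 0.1 (-1.16) and with quantile normalization (-1.35), and MXI1 without ePP-β replicate 1 (1.08). Where an alternative changed a call, the cause was not tested. TPM keeps no reads, so a test on counts was not possible, and 2 libraries a group limit the precision.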
